A study of Homo sapiens with 11 samples.

Results

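Nucleoporins, the proteins that build the nuclear pore complex, and the importins and exportins that carry cargo through it were measured in IMR32 cells, a human neuroblastoma cell line in which the MYCN oncogene is amplified. Members were taken by name: every gene whose symbol begins with NUP and a digit, or with KPNA, KPNB, IPO or XPO and a digit. This gave 47 of the 19775 genes named on the array, through 123 probe sets, each a group of short probes read as a single signal: 26 NUP genes, 6 KPNA genes, 1 KPNB gene, 9 IPO genes and 5 XPO genes. Lentivirus carried either the control hairpin SHC002 or the hairpin TRCN0000020696 against MYCN, and RNA was taken 24, 48 and 72 hours later. There were 2 arrays of cells without virus at time 0, 1 control virus array for each hour, and for each hour a pair of arrays labelled shMYCN (lettered A and B), 11 arrays in all. IMR32 is 1 cell line, the arrays labelled shMYCN rest on 1 hairpin, and nothing in the labels ties the 2 arrays of a group to separate cultures beyond the word for duplicate, so the p-values rest on differences between arrays that may be technical in part.

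The nuclear pore is a ring-shaped channel through the nuclear envelope. A scaffold of an inner ring and outer rings, the latter made of Y-shaped complexes, holds a central channel lined with phenylalanine-glycine (FG) repeats, cytoplasmic filaments and a nuclear basket. Importin alpha proteins (KPNA) recognise the classical nuclear localisation signal and are carried by importin beta (KPNB1), while other importins and the exportins bind cargo directly. The GTPase RAN sets the direction: RAN-GTP in the nucleus frees cargo from importins and loads exportins. MYC proteins bind DNA with MAX at the E-box CACGTG and at related sites such as CACGCG, and rapidly growing cells need transport for ribosome assembly.

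The gene named in the label was checked first. MYCN, read by its brightest probe set, stood at 5040.1 and 4507 without virus, 5332, 5389.7 and 5055 with control virus at 24, 48 and 72 hours, and 5488 and 4567, 5241 and 5317, and 5624 and 4946.5 at those hours on the arrays labelled shMYCN. The 6 arrays labelled shMYCN spanned the range of the 3 control virus arrays. Of the 10 MYCN probe sets 0 were called lower against the control virus, at a single hour or on average (limma; the brightest differed by -0.02 ± 0.09 in the mean), so the arrays are called labelled shMYCN here. Markers of noradrenergic neuroblastoma were present (5 of 6 measured genes above the limit for dim genes, among them GATA3, PHOX2A and DBH, while TH was below it at a mean signal of 7.73). Of 6 fibroblast markers, 2 were above the limit, COL1A1 and PDGFRB. Their list summed to a signal of 356 to 376 without virus, 333 to 406 with control virus and 469 to 721 on the arrays labelled shMYCN, and the other 4 (LUM, DCN, COL3A1 and COL1A2) lay below the limit. The part of this shift in the results was not tested. Leukocyte markers summed to 46.4 to 68.5 on every array. Median signals of the arrays ran from 14.9 to 16.7.

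Genes of the pore scaffold and several transport receptors were lower on the arrays labelled shMYCN. Relative to the control virus, averaged over 24, 48 and 72 hours, 13 of the 42 tested members were lower and 4 were higher (limma, Benjamini-Hochberg adjusted p under 0.05 over 11865 genes). The 13 were XPO5, IPO8, XPO1, IPO5, NUP35, NUP93, NUP214, NUP155, NUP205, NUP85, NUP188, NUP153 and NUP107, and the 4 were KPNA5, NUP98, IPO5P1 and KPNA4. Among all tested genes 15.8% were lower and 22.2% higher, against 31.0% and 9.52% of the members. In RNA of whole cultures, fewer cells expressing a gene and less RNA per cell cannot be told apart. The median log2 difference was -0.13 for the members and 0.04 for all tested genes. With arrays scaled to equal medians the members' count was 18 lower and 2 higher. Over all 11865 tested genes 2216 were then lower and 2037 higher, instead of 1871 and 2629. The share of higher genes among all called genes moved from 58.4% to 47.9%. That scaling moved the median of all genes at 72 hours by -0.11, and the share higher at that hour from 53.7% to 36.4%.

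The difference grew with time. At 24 hours no member passed (limma; 3 had an unadjusted p under 0.05), where 0.708% of all genes did. At 48 hours 5 were lower (XPO5, XPO1, IPO5, IPO8 and NUP93) and 2 higher (KPNA5 and NUP98), beside 6.9% and 10.1% of all genes. At 72 hours 15 were lower, the 13 above with NUP62 and XPO4, and KPNA5 and NUP98 were higher, beside 15.7% and 18.3%. The members' median log2 difference was -0.00, -0.13 and -0.19 at the 3 hours. A direct test of the 72 hour difference against the 24 hour difference called 5 members more negative and 1 more positive, beside 5.82% and 4.52% of all genes. The 48 hour arrays labelled shMYCN spread most as a pair. The standard deviation of the log2 difference within this pair over all tested genes was 0.27. It was 0.17 for the no virus pair, 0.18 at 24 hours and 0.19 at 72 hours. Without the shMYCN 48 hour array B more members were called at 48 hours in both directions, as were more of all tested genes. The count that differed between 72 and 24 hours, 6 members with all arrays, rose without either 48 hour array labelled shMYCN. It fell without either no virus array or any 24 or 72 hour array labelled shMYCN. The count over all tested genes moved the same way each time.

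Cells without virus gave a second reference. Against them, the mean of the arrays labelled shMYCN was lower for 14 members and higher for 2, beside 13.1% and 17.7% of all genes. The 14 were the same 13 with NUP58, an FG nucleoporin of the channel. The brightest probe set of NUP58 averaged 180 without virus, and 130, 132 and 146 with shMYCN at 24, 48 and 72 hours. Its other probe sets differed from it. Without virus and then at those hours, they averaged 118, 129, 123 and 133, then 96.8, 130, 116 and 112, and last 112, 116, 105 and 108. No member was called between the control virus and no virus (limma; 1 had an unadjusted p under 0.05), beside 0.0337% of all genes. The count of 14 rested on few arrays. It fell when either no virus array was left out, as did the count of lower genes over all tested genes. Both comparisons use the same arrays labelled shMYCN, so they are not independent.

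**Figure D1:**
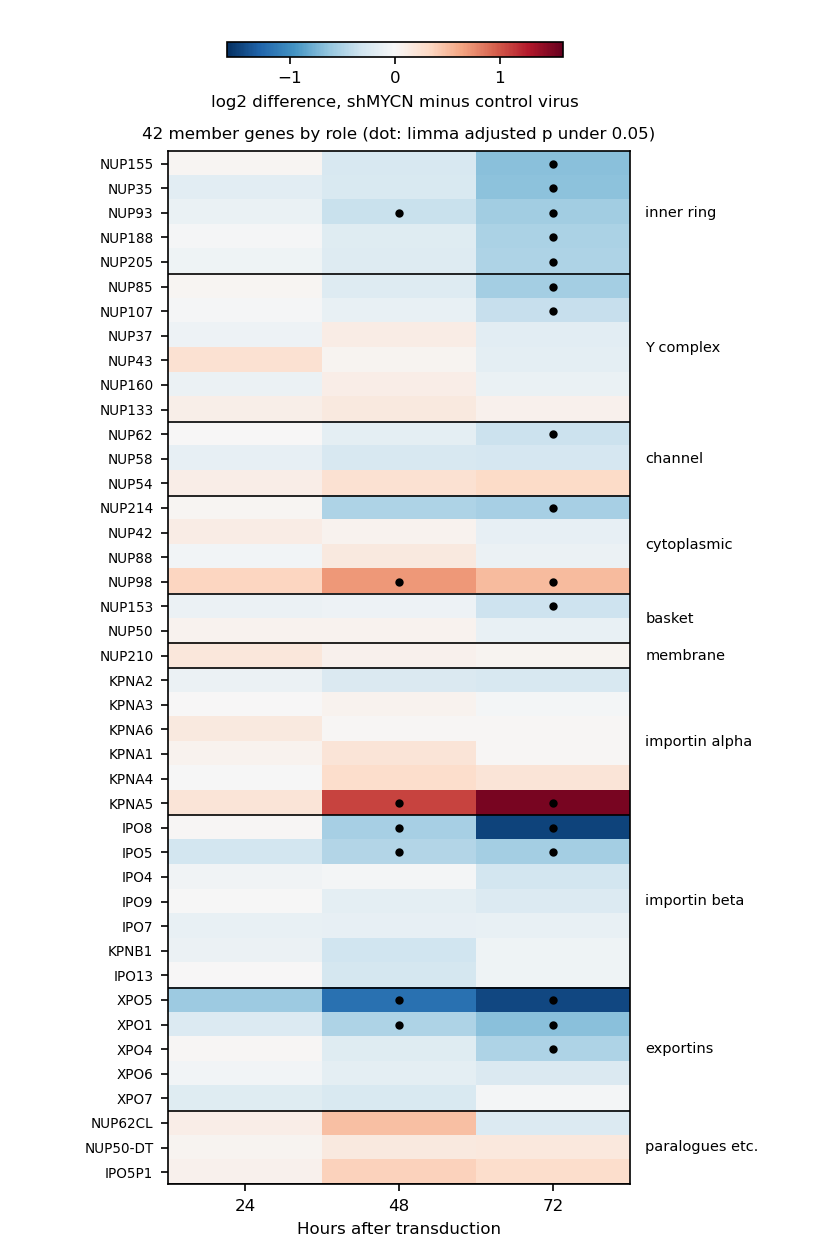
Colour gives the log2 difference in signal between arrays labelled shMYCN (n = 2 at each hour) and the control virus array (n = 1) for the 42 tested members, each read by its brightest probe set and ordered by role; a dot marks a limma adjusted p under 0.05. No dot falls at 24 hours; by 72 hours all 5 inner ring genes carry one, the largest fall among these probe sets is IPO8 at -1.48 and the largest rise KPNA5 at 1.52.

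XPO5 and IPO8 had the largest falls by brightest probe set, and NUP188 is the only inner ring gene with CACGTG or CACGCG near a start. The windows around the transcription starts of these members and of XPO1, 4 in all, are shown because they differ in these motifs. Each runs from 250 bases before to 50 bases after a start, 5′ to 3′ on the gene's strand, from RefSeq on build GRCh38.p14. Capitals mark CACGTG or CACGCG read on either strand, the latter appearing as CGCGTG on the other strand.

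XPO5, chr6:43575989-43576288, minus strand: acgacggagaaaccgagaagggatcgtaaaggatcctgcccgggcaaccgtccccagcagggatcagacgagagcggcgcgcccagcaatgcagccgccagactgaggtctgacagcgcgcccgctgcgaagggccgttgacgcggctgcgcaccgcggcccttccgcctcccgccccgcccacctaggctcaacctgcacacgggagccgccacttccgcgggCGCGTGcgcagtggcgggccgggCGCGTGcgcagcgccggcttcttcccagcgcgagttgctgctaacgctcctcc

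IPO8, chr12:30695820-30696119, minus strand: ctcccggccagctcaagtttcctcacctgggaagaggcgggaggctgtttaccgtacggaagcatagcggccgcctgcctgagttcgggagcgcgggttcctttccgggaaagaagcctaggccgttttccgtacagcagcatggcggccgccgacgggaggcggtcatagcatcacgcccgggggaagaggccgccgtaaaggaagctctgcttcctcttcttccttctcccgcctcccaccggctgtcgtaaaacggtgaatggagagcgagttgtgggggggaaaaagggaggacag

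XPO1, chr2:61537038-61537337, minus strand: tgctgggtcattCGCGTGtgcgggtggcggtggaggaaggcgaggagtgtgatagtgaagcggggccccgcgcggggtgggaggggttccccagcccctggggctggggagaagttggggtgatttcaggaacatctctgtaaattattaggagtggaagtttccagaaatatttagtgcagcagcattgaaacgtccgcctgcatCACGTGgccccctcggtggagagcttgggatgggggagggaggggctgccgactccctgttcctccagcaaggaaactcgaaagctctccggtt

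NUP188, chr9:128947449-128947748, plus strand: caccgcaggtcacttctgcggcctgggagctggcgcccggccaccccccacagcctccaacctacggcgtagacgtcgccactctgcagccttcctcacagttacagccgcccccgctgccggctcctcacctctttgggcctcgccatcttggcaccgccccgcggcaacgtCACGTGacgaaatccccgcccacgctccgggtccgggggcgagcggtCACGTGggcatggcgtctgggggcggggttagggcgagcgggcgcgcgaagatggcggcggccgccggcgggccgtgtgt

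The XPO5 window held 2 copies of CACGCG, starting at -26 and -3 relative to the start, and no CACGTG. XPO1 held CACGTG at -44 and CACGCG at -238, with neither motif in its other window. NUP188 held CACGTG at -77 and -30, and IPO8 held neither. The other inner ring genes, NUP35, NUP93, NUP155 and NUP205, held neither motif in any window. Of the 47 members 40 had a window. CACGTG lay in 7 of them (17.5%), IPO4, IPO7, KPNA3, NUP188, NUP50, NUP50-DT and XPO1, against 8.77% of all 27305 genes with windows of this length. CACGCG lay in 8 (20.0%), NUP50, NUP50-DT, NUP62, NUP85, XPO1, XPO4, XPO5 and XPO6, against 13.5%. No match of one motif overlapped a match of the other, and NUP50 and NUP50-DT start next to each other and share bases. Of the 7 members with CACGTG, XPO1 and NUP188 were lower and the other 5 were not called. Of the 8 with CACGCG, NUP85, XPO1 and XPO5 were lower and the other 5 not called. These counts stand beside 31.0% of the tested members and 15.8% of all tested genes lower. Members with and without a motif were not tested against each other. A match describes letters in this window and shows no binding.

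The inner ring, the part of the scaffold that lines the membrane opening and anchors the channel, was lower in every member: 5 of 5 in the mean over 3 times, at 72 hours and against cells without virus. Among all tested genes 15.8%, 15.7% and 13.1% were lower in these comparisons. The median of the 5 was -0.30 in the mean and -0.56 at 72 hours. NUP35, which touches the membrane, read 705 and 701 without virus, 712.5, 668 and 699 with control virus, and 632 and 627, 589.6 and 538.5, and 440.5 and 438 with shMYCN at 24, 48 and 72 hours. All 6 arrays labelled shMYCN lay below all 5 others, and the pair at 72 hours lay lowest. The log2 difference was -0.36 ± 0.06 (SE) in the mean over 3 times (limma adjusted p = 0.000454), -0.65 ± 0.10 at 72 hours and -0.17 ± 0.10 at 24 hours.

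NUP93, the linker that holds the inner ring together, read 562.5 and 555 without virus, 567, 613 and 579 with control virus, and 513 and 538, 444 and 508, and 390.4 and 387 with shMYCN at 24, 48 and 72 hours. Again all 6 arrays lay below the other 5. Its log2 difference was -0.34 ± 0.06 in the mean (adjusted p = 0.00109), and it was the inner ring gene that passed at 48 hours already, at -0.36 ± 0.10 (adjusted p = 0.0373).

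NUP155, a scaffold protein at the membrane, read 390.3 and 375 without virus, 373, 397 and 411 with control virus, and 352 and 413, 313 and 348, and 253 and 252 with shMYCN at 24, 48 and 72 hours. At 24 hours its arrays straddled the controls, and from 48 hours on they lay below every other array. The log2 difference was -0.30 ± 0.07 in the mean (adjusted p = 0.00533) and -0.67 ± 0.12 at 72 hours (adjusted p = 0.00126).

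NUP188 and NUP205 are large, related scaffold proteins that each pair with NUP93. NUP188 read 292.5 and 280.5 without virus, 258, 264 and 276 with control virus, and 269 and 243, 222 and 234, and 199 and 182 with shMYCN at 24, 48 and 72 hours, and NUP205 read 872 and 838.5 without virus, 876, 871 and 894 with control virus, and 819 and 846.5, 698 and 816, and 638 and 618 with shMYCN at 24, 48 and 72 hours. Both overlapped the other arrays at 24 hours and lay below all of them from 48 hours. Their differences in the mean were -0.24 ± 0.07 (adjusted p = 0.0153) and -0.26 ± 0.06 (adjusted p = 0.00713), and at 72 hours -0.50 ± 0.12 and -0.50 ± 0.11. A dim second probe set of NUP205 differed by 0.02 ± 0.14 in the mean, and 2 very dim ones of NUP188 by 0.27 and 0.08, none called. With all probe sets of a gene averaged, the sign for NUP188 turned, to 0.04, and neither NUP205, at -0.12 ± 0.07, nor NUP93, at -0.18 ± 0.10, was called. The other probe set of NUP93, at a mean signal of 6.15, lay below the dim limit of 14.8.

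**Figure D2:**
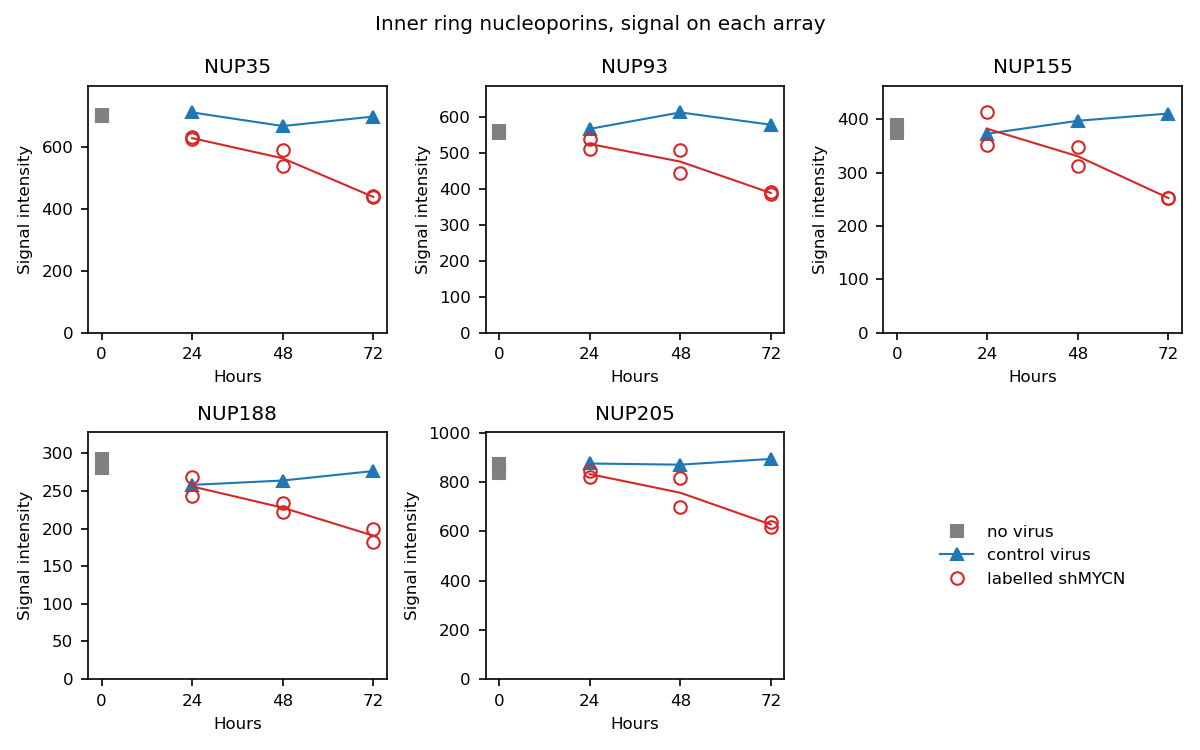
Signal intensity (linear, axis from 0) of the 5 inner ring genes on each of the 11 arrays against hours after transduction; squares are cells without virus, triangles the control virus, circles the arrays labelled shMYCN with a line through their mean. At 72 hours both circles lie below every square and triangle in all 5 panels, for NUP35 at 441 and 438 against 668 to 713.

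Of the 6 genes of the Y complex of the outer ring that the naming rule takes, 2 were lower and none higher. Among all tested genes 15.8% were lower and 22.2% higher. The median of the 6 was -0.04 in the mean and -0.17 at 72 hours. Y complex subunits outside the rule are given with the other pore genes: SEH1L was lower (-0.41 ± 0.06) and SEC13 not called (-0.002 ± 0.06). NUP85, in a short arm of the Y, read 1207 and 1222 without virus, 1167, 1173 and 1119.9 with control virus, and 1196 and 1198, 957 and 1081, and 762 and 758 with shMYCN at 24, 48 and 72 hours. Its arrays at 24 hours lay above the control virus arrays and below those without virus, and from 48 hours on they lay below all 5. The difference was -0.24 ± 0.06 in the mean (adjusted p = 0.00708) and -0.55 ± 0.10 at 72 hours (adjusted p = 0.00147). NUP107, in the stem, read 1514 and 1443 without virus, 1431, 1468 and 1436.5 with control virus, and 1455 and 1371, 1386 and 1314, and 1157 and 1053 with shMYCN at 24, 48 and 72 hours. It was lower by a small amount, -0.17 ± 0.06 in the mean (adjusted p = 0.0396) and -0.38 ± 0.10 at 72 hours. NUP133, the stem partner of NUP107, differed by 0.10 ± 0.06 and NUP160 by -0.03 ± 0.09, neither called. NUP37 and NUP43, the WD-repeat subunits, differed by -0.05 ± 0.06 and 0.04 ± 0.07, not called. A dimmer probe set of NUP160 was called higher (0.58 ± 0.11) and one of NUP37 lower (-0.51 ± 0.12).

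Around the channel, results were mixed. NUP62, NUP58 and NUP54 form the FG complex of the central channel, and none of them passed in the mean: -0.17 ± 0.07, -0.23 ± 0.09 and 0.22 ± 0.09. NUP62 passed at 72 hours, at -0.35 ± 0.12 (adjusted p = 0.0467). NUP214, on the cytoplasmic filaments, read 132 and 136 without virus, 129.9, 144 and 129 with control virus, and 139 and 128, 84.0 and 112.5, and 79.0 and 88.9 with shMYCN at 24, 48 and 72 hours. Its 4 arrays of 48 and 72 hours lay below all others. The difference was -0.33 ± 0.09 in the mean (adjusted p = 0.0156), or -0.15 ± 0.08 and not called with its probe sets averaged, while NUP88, its partner, differed by 0.01 ± 0.06 and NUP42, which works with GLE1 in mRNA export, by 0.02 ± 0.08, neither called. In the nuclear basket, NUP153 read 1058 and 1007 without virus, 1048, 975 and 995 with control virus, and 978 and 982, 969.8 and 873, and 801 and 781 with shMYCN at 24, 48 and 72 hours, a difference of -0.17 ± 0.06 (adjusted p = 0.0379) that was not called with its probe sets averaged. The other 2 probe sets of NUP153 were dim, at mean signals of 11.5 and 18.5. NUP50, which helps to unload importin alpha, differed by -0.01 ± 0.06 by its brightest probe set, not called. Its second brightest probe set was not called in the mean either. That probe set read 403 and 315 without virus, and 335, 362 and 356.5 with control virus. With shMYCN it read 319 and 375, 259 and 281, and 231 and 259 at 24, 48 and 72 hours. Its 4 arrays of 48 and 72 hours lay below all others. The membrane glycoprotein NUP210 differed by 0.10 ± 0.08, not called.

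NUP98 is a mobile FG nucleoporin whose gene also encodes the Y complex protein NUP96 from a joint precursor. Its brightest probe set read 269.9 and 295 without virus, 231, 216 and 238 with control virus, and 291 and 304, 349 and 366, and 349 and 338 with shMYCN at 24, 48 and 72 hours. It was called higher by 0.51 ± 0.06 in the mean (adjusted p = 7.67e-05), although the control virus arrays were themselves 0.29 ± 0.08 below cells without virus (adjusted p = 0.541). The other 2 probe sets of the gene went the opposite way. The second read 266 and 225 without virus, 264, 263 and 268 with control virus, and 241 and 226, 129 and 202, and 143 and 150.4 with shMYCN at 24, 48 and 72 hours, a difference of -0.54 ± 0.12 in the mean (adjusted p = 0.0217 over every probe set). The third read 185 and 176 without virus, 171, 176 and 181 with control virus, and 158 and 164, 94.6 and 132, and 82.0 and 96.0 with shMYCN at 24, 48 and 72 hours, a difference of -0.52 ± 0.10 (adjusted p = 0.00938). Which transcripts each probe set detects is not given in the sources used here, so the gene has no single direction, and the mean of its 3 probe sets was -0.18 ± 0.08 (adjusted p = 0.0988).

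Of the exportins, 2 of 5 were lower in the mean and 3 at 72 hours, beside 15.8% and 15.7% of all tested genes. Their medians were -0.23 and -0.50. XPO5, the exportin of microRNA precursors, read 825 and 754 without virus, 791, 763 and 772 with control virus, and 521 and 529, 272 and 383, and 291 and 251.5 with shMYCN at 24, 48 and 72 hours. It was below every reference array from 24 hours on and, with each gene read by its brightest probe set, fell the most of the tested members in the mean over 3 times: -1.08 ± 0.09, a fall of 2.11-fold (adjusted p = 7.56e-06). The differences at the 3 hours were -0.58 ± 0.16, -1.20 ± 0.16 and -1.46 ± 0.16. Its other 2 probe sets were lower too, with differences of -0.78 ± 0.07 and -1.14 ± 0.06 in the mean (adjusted p = 0.00029 and 2.22e-05 over every probe set).

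XPO1, also called CRM1, exports proteins with a leucine-rich signal as well as ribosomal subunits. It read 3530.3 and 3035 without virus, 3278, 3462 and 3455 with control virus, and 2897 and 2718, 2428 and 2469, and 2287 and 2057 with shMYCN at 24, 48 and 72 hours. All 6 arrays labelled shMYCN were below all 5 others. The difference was -0.46 ± 0.07 in the mean (adjusted p = 0.000354) and -0.67 ± 0.12 at 72 hours (adjusted p = 0.00139). A far dimmer probe set of the gene was called higher, by 0.26 ± 0.07 (adjusted p = 0.0483 over every probe set), and with its 3 probe sets averaged XPO1 stood at -0.09 ± 0.07 and was not called (adjusted p = 0.346). XPO4, an exportin of the translation factor eIF5A, passed at 72 hours (-0.50 ± 0.17, adjusted p = 0.0423). XPO6, which exports actin, and XPO7 differed by -0.14 ± 0.07 and -0.15 ± 0.07 in the mean, not called.

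Among importins of the beta family 2 of 7 tested genes were lower in the mean, beside 15.8% of all tested genes. IPO8, a receptor close in sequence to IPO7, read 529 and 499 without virus, 485, 492 and 553 with control virus, and 499 and 488, 341 and 327, and 190.4 and 185 with shMYCN at 24, 48 and 72 hours. At 24 hours its arrays lay among the references, at 48 hours below all of them and at 72 hours lower still. The difference went from 0.02 ± 0.10 at 24 hours to -0.54 ± 0.10 at 48 and -1.48 ± 0.10 at 72 hours, 2.79-fold (adjusted p = 1.86e-06), and the change between 24 and 72 hours was -1.50 ± 0.14 (adjusted p = 0.000204). The dim second probe set of IPO8 was lower as well, with a difference of -0.55 ± 0.11 in the mean.

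IPO5 imports ribosomal proteins and histones. Its brightest probe set read 1059 and 969.6 without virus, 1031, 1033 and 1023 with control virus, and 820.5 and 859, 720.2 and 759.8, and 709.8 and 680.0 with shMYCN at 24, 48 and 72 hours, a difference of -0.44 ± 0.06 in the mean (adjusted p = 0.00014). All 6 arrays were below the others from 24 hours on. Of its other 4 probe sets 3 were also called lower, and they differed in size. The one that fell most read 839 and 929 without virus, 803, 837 and 814 with control virus, and 474 and 599, 326.5 and 291, and 172 and 163.5 with shMYCN at 24, 48 and 72 hours, a difference of -1.38 ± 0.08 in the mean and -2.17 ± 0.14 at 72 hours. The same gene thus gave a 72 hour difference of -0.55 or -2.17 by probe set. IPO5P1, a pseudogene of IPO5 with shared sequence, was called higher at 0.24 ± 0.09 (adjusted p = 0.0477), and its signal cannot be told apart with certainty from that of its parent gene.

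KPNB1, importin beta itself, read 4358 and 3995 without virus, 4465, 4739 and 3970.0 with control virus, and 4374 and 3974, 3396 and 4222, and 3967 and 3599 with shMYCN at 24, 48 and 72 hours. These arrays overlapped the controls, and its difference was -0.16 ± 0.08 in the mean (adjusted p = 0.139). Its 6 probe sets spread around 0, from -0.16 to 0.25, and 1 was called higher, and their average was 0.09 ± 0.05, not called. IPO7, a receptor for ribosomal proteins, gave -0.13 ± 0.06 by its brightest probe set, not called, but -0.42 ± 0.06 by its dimmest (adjusted p = 0.00191 over every probe set). IPO9, a histone importer, gave -0.13 ± 0.06 by its brightest, not called, while its other 3 were all called lower, at -0.33 ± 0.07, -0.45 ± 0.08 and -0.42 ± 0.08. IPO4 and IPO13 differed by -0.12 ± 0.08 and -0.11 ± 0.08, not called.

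Of the 6 importin alpha genes 2 were higher and none lower, with a median of 0.08, beside 22.2% of all tested genes higher. KPNA5, an importin alpha of the same subgroup as KPNA1 and KPNA6, read 136 and 125 without virus, 133, 116.5 and 121 with control virus, and 147.5 and 165.5, 284 and 245, and 398 and 356 with shMYCN at 24, 48 and 72 hours. All 6 arrays labelled shMYCN lay above all 5 others, and the signal at 72 hours was the highest. The difference rose from 0.21 ± 0.14 at 24 hours to 1.08 ± 0.14 at 48 and 1.52 ± 0.14 at 72 hours, 2.87-fold (adjusted p = 1.38e-05), a change of 1.32 ± 0.19 between the first and last hours (adjusted p = 0.00241). All 3 of its probe sets were called higher in the mean, at 0.94, 0.63 and 1.39.

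KPNA4 read 884 and 884 without virus, 856, 805.5 and 884 with control virus, and 839 and 869, 1041.5 and 931, and 1018 and 1022 with shMYCN at 24, 48 and 72 hours. The 4 arrays of 48 and 72 hours lay above all references. The difference was small, 0.16 ± 0.06 in the mean (adjusted p = 0.0441), and larger in a dimmer probe set that rose by 0.51 ± 0.06 in the mean and 0.86 ± 0.10 at 72 hours (adjusted p = 0.00106 over every probe set).

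KPNA2, the importin alpha linked to dividing cells, read 4945 and 4471 without virus, 5354, 5478 and 5326 with control virus, and 5408 and 4665, 4831 and 4466, and 4954 and 4030.1 with shMYCN at 24, 48 and 72 hours. Only the 24 hour array A, at 5408, lay among the control virus arrays, and the other arrays labelled shMYCN lay below them. The arrays without virus, at 4945 and 4471, overlapped those labelled shMYCN. The difference was -0.19 ± 0.08 in the mean (adjusted p = 0.095), not called, and KPNA2 was called lower under 3 of the 22 alternatives tried. KPNA1, KPNA3 and KPNA6 differed by 0.09 ± 0.07, 0.01 ± 0.05 and 0.06 ± 0.09, none called. The test of KPNA5 against these relatives was not made, so their differences stand side by side only.

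**Figure D3:**
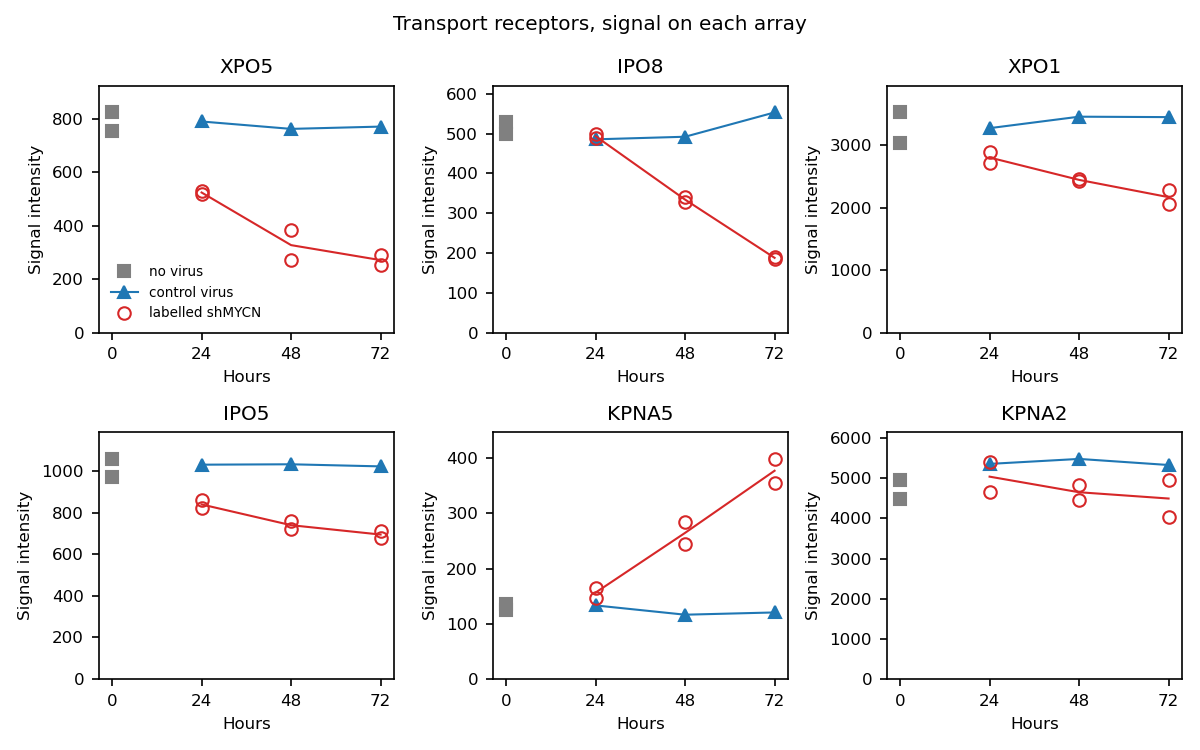
Signal intensity (linear, axis from 0) of 6 transport receptors on each of the 11 arrays against hours after transduction, with symbols for cells without virus, control virus and arrays labelled shMYCN (line through their mean). XPO5 and IPO8 fall to 252 and 185 at 72 hours, KPNA5 climbs to 398, and the KPNA2 circles overlap the other arrays.

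**Figure D4:**
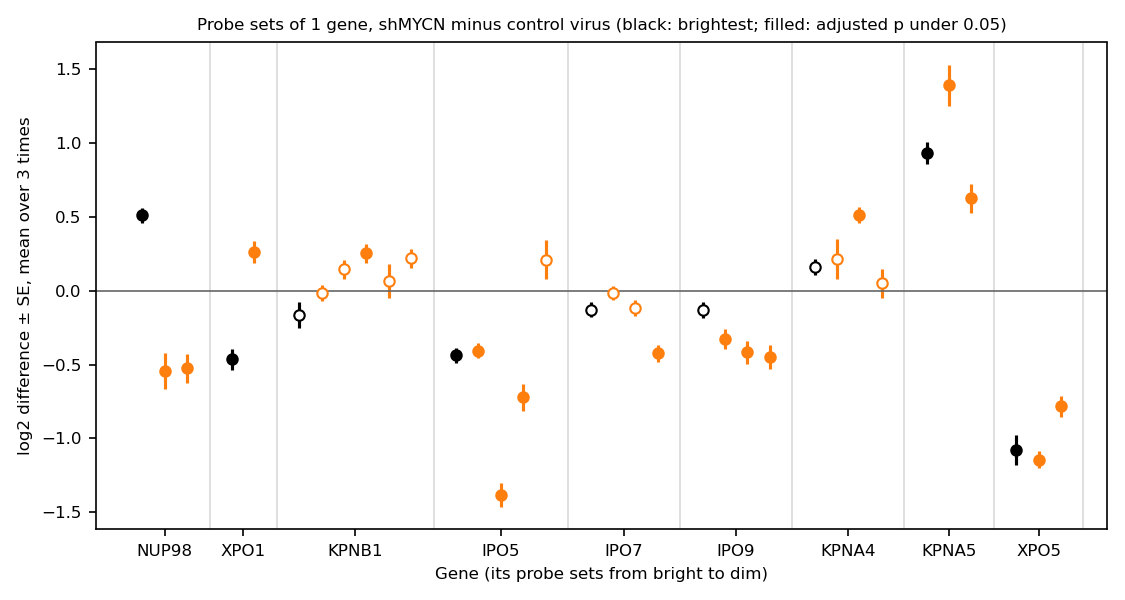
Log2 difference in the mean over 3 times, with its standard error, for each probe set above the dim limit of 9 members, from bright to dim; black is the brightest, filled points passed an adjusted p of 0.05 in the fit of every probe set. XPO5, KPNA5, KPNA4, IPO7 and IPO9 keep 1 sign over all their points, while NUP98 and XPO1 have filled points on both sides of 0.

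Read by every probe set, 24 of the 123 member probe sets were lower and 9 higher, from 15 and 7 genes, beside 6.89% and 7.83% of all 41091 probe sets. Of the 17 called members 11 had other probe sets above the dim limit, 20 in all: 12 had the sign of the brightest, 9 of these were called, and 3 were called with the opposite sign (2 of NUP98 and 1 of XPO1). The paralogue NUP62CL and NUP50-DT, a transcript next to NUP50, differed by 0.12 ± 0.10 and 0.12 ± 0.11, not called. Members too dim to test were 5: IPO11, IPO9-AS1, NUP133-DT, NUP210L and NUP210P1, at signals of 0.3 to 18.1. A further 4 probe sets named several genes and were left out, 3 of IPO11 and 1 of NUP62. The brightest of these, shared by IPO11 and IPO11-LRRC70, read 271 and 197 without virus, 219.6, 239.8 and 230.3 with control virus, and 220.0 and 229, 168 and 179.7, and 141 and 165 with shMYCN at 24, 48 and 72 hours, untested here.

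Other parts of the pore and its transport system, whose names follow no common rule, were read as a comparison. Beside the 15.8% of all tested genes that were lower in the mean, 5 of 10 other pore genes were lower and none higher, with a median of -0.31. POM121C, a membrane nucleoporin with a near-identical copy that makes its value uncertain, read 278 and 288 without virus, 271, 282 and 249 with control virus, and 135 and 170.4, 77.2 and 102, and 82.6 and 99.9 with shMYCN at 24, 48 and 72 hours, a difference of -1.20 ± 0.10 (adjusted p = 5.83e-06). SEH1L, a subunit of the Y complex, differed by -0.41 ± 0.06 and AHCTF1, which seeds pores on chromatin, by -0.55 ± 0.08. GLE1, of the cytoplasmic face, differed by -0.35 ± 0.07, and the membrane protein NDC1 by -0.29 ± 0.06. The remaining 5, AAAS, RAE1, RANBP2, SEC13 and TPR, were not called in the mean, with TPR at -0.32 ± 0.12. At 72 hours TPR was called lower, at -0.765 ± 0.205, as were the 5 genes lower in the mean, beside 15.7% of all tested genes.

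Against the same 15.8%, 2 of 9 other receptors, 1 of 6 genes of the RAN cycle and 2 of 8 mRNA export genes were lower in the mean. These are counts of few genes with no test of their own. CSE1L, which returns importin alpha to the cytoplasm, read 3224.5 and 2964 without virus, 3282, 3355.5 and 3093 with control virus, and 3103 and 2868, 2503 and 2675, and 2177 and 1966 with shMYCN at 24, 48 and 72 hours, a difference of -0.36 ± 0.07 (adjusted p = 0.00126), and TNPO2, an importer of RNA-binding proteins, differed by -0.21 ± 0.07 (adjusted p = 0.0318). The gene of the RAN cycle was RANBP1, which helps RAN to hydrolyse GTP. It read 3766 and 3715 without virus, 3968, 4013 and 3625 with control virus, and 3151.5 and 2896, 2366 and 2589.9, and 1847 and 1771 with shMYCN at 24, 48 and 72 hours, a difference of -0.69 ± 0.06 (adjusted p = 9.03e-06), and lay below all references at every hour. RAN and its exchange factor RCC1 differed by -0.15 ± 0.07 and -0.17 ± 0.08, not called. The mRNA export genes were THOC7 of the THO complex, which read 665 and 685 without virus, 672, 599 and 619 with control virus, and 299 and 301, 216 and 146, and 137 and 158 with shMYCN at 24, 48 and 72 hours and differed by -1.58 ± 0.10 (adjusted p = 6.39e-07), and the adaptor ALYREF, by -0.40 ± 0.06 (adjusted p = 0.000617). THOC7 was called lower at 24 hours already, at -1.12 ± 0.17. At 72 hours the same genes of these lists were called lower, with RANGRF of the RAN cycle (-0.50 ± 0.11). The receptor NXT2 was called higher at that hour (0.66 ± 0.19). Among all tested genes 15.7% were lower and 18.3% higher at 72 hours.

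Each hour had 1 control virus array, so its error was assumed to equal that of the paired groups, and 1 such array carries much weight. Without the 72 hour control the mean covers 24 and 48 hours alone, and 4 members were lower and 2 higher instead of 13 and 4. Over all 11865 tested genes, 776 were lower and 1162 higher instead of 1871 and 2629. NUP35, NUP85, NUP93, NUP107, NUP153, NUP155, NUP188, NUP205 and NUP214 then missed the threshold, at -0.21 for NUP35 and -0.18 for NUP93, and IPO8 stood at -0.26. XPO5, IPO8, IPO5 and KPNA5 passed under all 22 alternatives tried. KPNA4 missed under 13 of them, and NUP107 and NUP153 under 12 each.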

How the data were processed

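Total RNA of 11 IMR32 samples was hybridised to one-colour Affymetrix arrays. The values the authors deposited are signal intensity on a linear scale, for 54675 probe sets per array; MAS5 and GCOS are named per the submitters' processing notes, with no version. On every array the mean of the middle 96% of values was 100.0, so a change in total RNA per cell cannot be seen. Detection calls were not used here.

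Probe sets with 1 symbol (41097) were named from the platform annotation and updated through Entrez numbers. A gene was read by its brightest probe set, and the dimmest 40% of genes (mean signal under 14.8) were left out. Values were taken as log2(signal + 16), which understates folds of dim genes, and fitted with limma 3.58.1 in R 4.3.3 (7 group means, 4 residual and 7.35 prior degrees of freedom, eBayes with trend, two-sided, Benjamini-Hochberg over 11865 genes, threshold 0.05). Errors are standard errors of that fit. Only the 4 groups with paired arrays inform the spread. A second fit took every probe set with 1 symbol, unfiltered, and the fit was tested on simulated data. The members, lists and naming rule were chosen with earlier results of these data known. Array values are given for called members, up to 16 by smallest p, with KPNB1 and KPNA2, and up to 4 of each comparison list were candidates for naming. The 22 alternatives changed offset, filter, scaling, probe set choice, variance model, threshold, model, block, or left out each of 11 arrays.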

Additional observations from a re-analysis of the deposited data

Results flagged for a closer look

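For 6 members the difference between arrays labelled shMYCN and control virus at 72 hours was not the same as at 24 hours by a direct test of the change (limma, adjusted p under 0.05 over 11865 genes; each hour has 1 control array). IPO8, an importin, changed by -1.50 ± 0.14 on the log2 scale, and XPO5, the exportin of microRNA precursors, by -0.88 ± 0.23. Of the pore scaffold, NUP155 changed by -0.70 ± 0.17, NUP85 by -0.59 ± 0.14 and NUP35 by -0.48 ± 0.14. KPNA5, an importin alpha, changed the other way, by 1.32 ± 0.19.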

How the results depend on the processing

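The single control arrays and the small groups limit these results, and signals near the dim limit carry little information. Members lower and higher in the mean over 3 times (13 and 4) were 7 and 2 in an additive model of virus and hour. Over all 11865 tested genes that model called 1430 lower and 2061 higher, instead of 1871 and 2629. The higher count of members was 2 with median scaling, no filter, all probe sets averaged, no variance trend or a threshold of 0.01. At 48 hours (5 and 2), 3 were lower at 0.01 and 1 higher with probe sets averaged, as was 1 at 72 hours (2). The 6 that differed between 72 and 24 hours were 2 with no filter, no trend or 0.01. Against no virus (14 and 2), 9 were lower with no filter or probe sets averaged, and 7 at 0.01 or in the additive model. The 2 higher were 1 with median scaling, probe sets averaged, no trend, 0.01 or the additive model. Leaving out each array gave 4 to 18 lower and 2 to 6 higher in the mean, 0 to 1 lower at 24 hours, 4 to 13 and 2 to 7 at 48 hours, 11 to 16 and 2 to 4 at 72 hours, 2 to 12 for the change, and 4 to 15 and 1 to 5 against no virus. The 24 hour count is 0 lower with all arrays. Where another scaling, filter, probe set choice, variance model, threshold or model gave fewer members here, fewer of all tested genes were called too. Counts over all tested genes moved too when arrays were left out. With probe sets averaged the sign turned for NUP98 (-0.18), NUP188 (0.04) and KPNB1 (0.09, called in neither), since their dimmer probe sets differ from the brightest, and XPO1, NUP93, NUP205, NUP214 and NUP153 lost their calls. The cause of the other shifts was not tested.

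With the letters A and B as a replicate block, 17 members were lower and 4 higher in the mean. Over all 11865 tested genes 2005 were then lower and 2758 higher, instead of 1871 and 2629. Same-lettered arrays share only a letter: the correlation of their A minus B differences was -0.05 for 24 and 48 hours, 0.04 for 24 and 72 hours and 0.10 for 48 and 72 hours.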
